A study of Mus musculus with 2 samples.

Results

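The 6 genes Pomt1, Pomt2, Pomgnt1, Pomgnt2, Pomk and B4gat1 encode enzymes that build sugar chains on alpha-dystroglycan, and they were chosen by name from the 55536 annotated genes of the deposited gene table. Each symbol led to a single gene identifier. RNA came from the gastrocnemius, the large calf muscle, of adult male mice of strain 5xFAD/CAST, labelled as a 5xFAD X Cast cross, aged 8 to 10 months. The 5xFAD line carries mutant human transgenes and serves as a mouse model of cerebral amyloid deposits, and CAST is a wild-derived inbred strain of the castaneus subspecies. The series holds 1 group of 2 libraries, labelled biological replicates 1 and 2, with a biosample each but 1 donor entry in common. Nothing states that they came from separate animals, so their spread may be technical, and no control genotype, other age or other muscle was available for comparison.

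Alpha-dystroglycan sits on the surface of the muscle fibre and is held to the dystrophin complex through beta-dystroglycan. It binds laminin and other matrix proteins through matriglycan, a long sugar polymer carried on a phosphorylated O-linked mannose. In humans, loss of function of any of the 6 enzymes causes a dystroglycanopathy, a group of muscular dystrophies that often also affect the brain and the eye. POMT1 and POMT2 together put the first mannose on the protein, POMGNT1 and POMGNT2 extend it with N-acetylglucosamine in different linkages, POMK phosphorylates the mannose of the chain begun by POMGNT2, and B4GAT1 adds the glucuronic acid from which the polymer is grown.

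Gene totals were 35163970 and 35412240 expected counts in replicates 1 and 2. An expected count estimates the reads of a gene and divides reads that match more than 1 gene. TPM divides it by transcript length and scales the resulting values to the same sum in each library. The libraries had the markers of muscle fibres, with a median over 6 fibre genes of 15147 and 14548 TPM. Medians of the lists for fibroblasts, endothelium, mural cells, adipocytes, Schwann cells, leukocytes and satellite cells lay between 0.60 and 27.3 TPM. Markers of neurons and brain and of hepatocytes were at or near 0, with Apoa1 listed at 0 in both libraries. All 4 endothelial genes (summed 42.1 and 27.7 TPM) and all 3 adipocyte genes (summed 51.5 and 33.3 TPM) were higher in replicate 1, and the part of these cells in the values below was not tested. In bulk muscle, a lower level from fewer cells of a type and one from less RNA per cell cannot be told apart.

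All 6 enzymes were measured at 1 TPM or more in both libraries, at levels that covered more than a factor of 10. Pomgnt1 had 22.6 TPM in replicate 1 and 20.9 TPM in replicate 2. B4gat1 had 7.69 and 8.78 TPM, and Pomgnt2 had 7.41 and 6.07 TPM. Pomgnt1 thus stood well above the rest, while B4gat1 and Pomgnt2 lay close together. Pomt1 had 4.44 and 4.49 TPM, and Pomk had 2.76 and 2.67 TPM. Pomt2 was the lowest of the 6, with 1.91 and 1.69 TPM. Over both libraries Pomgnt1 averaged 21.8 ± 1.24 TPM and Pomt2 1.80 ± 0.16 TPM (SD, n = 2). Pomgnt1 alone held 48.3% and 46.8% of the summed TPM of the 6 genes, which came to 46.8 and 44.6 TPM.

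The order Pomgnt1, B4gat1, Pomgnt2, Pomt1, Pomk, Pomt2 was the same in both libraries and in both quantifications, and no gene's 2 library values overlapped those of its neighbour. The narrowest step was between B4gat1 and Pomgnt2, 1.22-fold in mean TPM, with 0.28 TPM between the lowest B4gat1 value and the highest Pomgnt2 value. In replicate 1 the 95% counting intervals of that pair, 6.94 to 8.50 TPM for B4gat1 and 6.69 to 8.19 TPM for Pomgnt2, overlapped. In replicate 2, at 8.00 to 9.62 TPM and 5.45 to 6.74 TPM, they did not. The other steps were 2.64-fold from B4gat1 up to Pomgnt1, 1.51-fold from Pomt1 up to Pomgnt2, 1.64-fold from Pomk up to Pomt1 and 1.51-fold from Pomt2 up to Pomk, and their counting intervals did not overlap in either library. These intervals cover counting error only, and they treat reads as independent molecules, which reads are not. With 2 values a gene, the exact two-sided permutation test cannot go below p = 0.333, so the order is given as a description. No enzyme was 1.5-fold apart between the gene table and the kallisto-layout table, where 4.07% of the 9741 genes averaging 100 counts or more were, and the widest gap was a log2 difference of 0.20 for B4gat1.

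**Figure D1:**
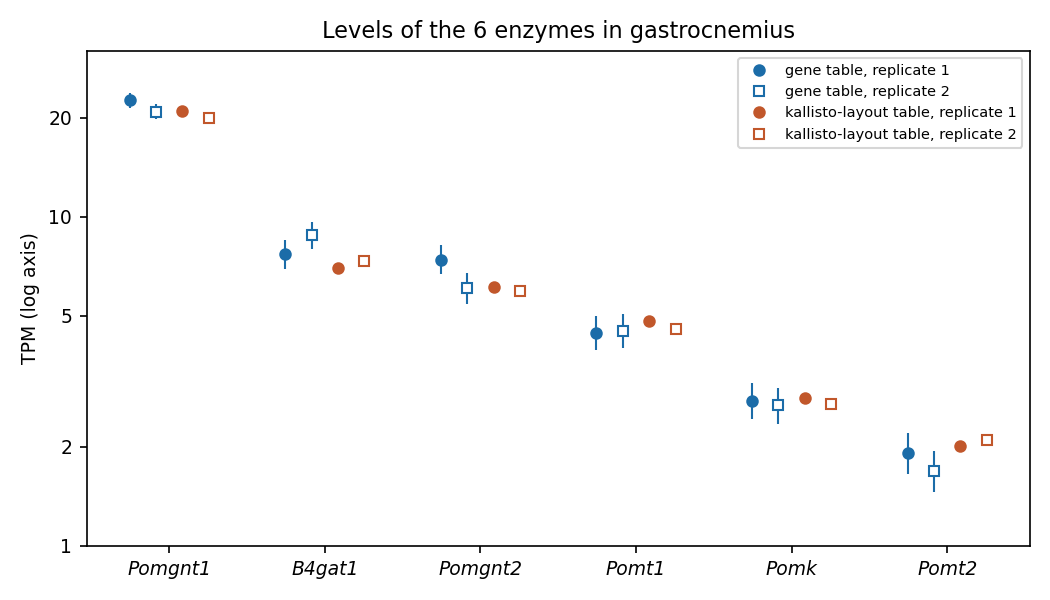
TPM on a log axis for the 6 genes in each library, from the gene table (blue, with 95% counting intervals) and from the kallisto-layout transcript table summed per gene (orange). Filled circles are replicate 1 and open squares replicate 2, Pomgnt1 lies between 20.1 and 22.6 TPM and Pomt2 at or below 2.09 TPM.

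Among 22015 nuclear protein-coding genes ranked by mean TPM, Pomgnt1 stood at rank 2405, B4gat1 at 4982, Pomgnt2 at 5572, Pomt1 at 6794, Pomk at 8179 and Pomt2 at 9165. The median of the 6 genes was 5.93 TPM in replicate 1 and 5.28 TPM in replicate 2. Over the 10068 protein-coding genes with at least 1 TPM in both libraries, the median was 8.48 and 7.66 TPM. Pomgnt1 was above that median in both libraries, B4gat1 was above it in replicate 2 alone, and the other 4 were below it in both. The protein-coding gene nearest to each enzyme in level over the 2 libraries, measured as Euclidean distance on log2(TPM + 0.1), was Snrpd2 for Pomgnt1, Rbm6 for B4gat1, Dock9 for Pomgnt2, Fam160b1 for Pomt1, Alg6 for Pomk and Pnpla3 for Pomt2. Between 21 genes (B4gat1) and 126 genes (Pomgnt1) lay within a distance of 0.1 of an enzyme, so such nearness is common.

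Dystroglycan O-mannosylation begins in the endoplasmic reticulum with Pomt1 and Pomt2, whose proteins are active as a complex. Their messenger RNA levels were unequal. Pomt1 (ENSMUSG00000039254.16, mm10, chromosome 2 from 32236590 to 32255005, forward strand) exceeded Pomt2 (ENSMUSG00000034126.5, chromosome 12 from 87106861 to 87147968, reverse strand) by 2.32-fold in TPM in replicate 1 and 2.66-fold in replicate 2. In the kallisto-layout table the ratios were 2.40 and 2.17. The libraries thus both placed Pomt1 more than a factor of 2 above Pomt2. Pomt1 had 285 and 280 expected counts and Pomt2 198 and 192, so neither moved between libraries by more than counting error, at log2 ratios of replicate 1 to replicate 2 of -0.03 (95% interval -0.27 to 0.22) and -0.01 (-0.30 to 0.29).

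The promoters of the pair are shown because genes whose proteins form a single complex differed in level. Each is the RefSeq window of 250 bases before to 50 bases after the start, GRCm38.p6, 5′ to 3′ in the direction of the gene. Pomt1 is chr2:32236390-32236689, forward strand, and Pomt2 is chr12:87147853-87148152, reverse strand. Capitals mark matches on either strand to 4 motifs, the GC box (GGGCGG), the CCAAT box (CCAAT), the TATA box (TATAAA) and the E-box (CANNTG).
Pomt1 promoter: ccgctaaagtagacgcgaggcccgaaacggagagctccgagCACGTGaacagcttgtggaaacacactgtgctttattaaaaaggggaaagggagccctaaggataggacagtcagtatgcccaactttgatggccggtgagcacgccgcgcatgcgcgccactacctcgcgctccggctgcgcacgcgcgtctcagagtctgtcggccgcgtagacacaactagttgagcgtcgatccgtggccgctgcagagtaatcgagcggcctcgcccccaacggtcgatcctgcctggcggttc
Pomt2 promoter: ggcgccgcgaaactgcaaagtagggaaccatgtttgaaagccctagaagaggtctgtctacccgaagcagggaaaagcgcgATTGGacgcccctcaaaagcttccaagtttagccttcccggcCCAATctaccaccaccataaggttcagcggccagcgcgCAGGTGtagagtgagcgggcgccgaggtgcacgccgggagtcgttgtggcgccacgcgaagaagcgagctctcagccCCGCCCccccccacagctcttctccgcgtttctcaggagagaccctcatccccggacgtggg
The Pomt1 window held 1 E-box, a motif present in 72.3% of the 32851 RefSeq promoters of this length, and none of the other 3 motifs. The Pomt2 window held 1 E-box, 1 GC box, found in 35.7% of all promoters, and 2 CCAAT boxes, found in 37.4%. Both windows were rich in CG dinucleotides, with 33 in Pomt1 and 26 in Pomt2 against a median of 7 over all promoters. Letter matches describe the windows and are not evidence of binding.

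Most of the RNA of Pomt1 and Pomt2 was assigned to the long coding transcript, and both genes also had transcripts annotated as targets of nonsense-mediated decay. Pomt1-201, with 20 exons and 746 codons, held 81.1% and 74.4% of the TPM of the gene in replicates 1 and 2 of the RSEM-layout transcript table, and 62.9% and 69.8% in the kallisto-layout table. Pomt2-201, with 21 exons and 820 codons, held 59.2% and 68.8%, and 61.0% and 57.7% in the kallisto-layout table. In TPM, Pomt1-201 stood at 3.60 and 3.35 and Pomt2-201 at 1.13 and 1.17. In TPM, Pomt2-201 thus lay closer together in the 2 libraries than Pomt2 as a whole, at 1.91 and 1.69. This did not hold in expected counts, which were 143.4 and 157.3 for Pomt2-201 and 198 and 192 for Pomt2.

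The share of the decay transcript Pomt2-204 was higher in replicate 1 in both tables, at 38.2% against 17.6% of gene TPM in replicate 2, and at 29.0% against 11.3% in the kallisto-layout table. Its counts were 50.1 of 198 in replicate 1 and 21.6 of 192 in replicate 2, or, rounded, 25.3% (exact 95% interval 19.4 to 31.9) and 11.5% (7.32 to 16.8). The intervals did not overlap, but they leave out the error of dividing reads among transcripts, for which the deposited posterior SD was 13.8 and 12.2 counts. Pomt2-204 keeps an intron of 81 bases after exon 17 (chr12:87111443-87111523, mm10, reverse strand), and its reading frame stops 25 bases into that intron. It also differs from Pomt2-201 at both ends, with 2774 bases against 5064. The stretch is shown because it holds the early stop: 15 exon bases lead into the intron, and the stop codon is in capitals.
Pomt2-204: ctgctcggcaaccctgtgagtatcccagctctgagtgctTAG

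Pomt1-211, a partial transcript annotated for decay, was at 0 in replicate 1 and at 18.0% of Pomt1 TPM in replicate 2 of the RSEM-layout table. That share rested on 13.3 counts with a posterior SD of 6.60, because the transcript is short (703 bases). The kallisto-layout table placed it at 13.8% and 28.0%, on 10.2 and 19.5 estimated counts. Its second exon begins 31 bases early (chr2:32250439-32250469, mm10, forward strand), a length that is not a multiple of 3. The added bases are in capitals between 15 bases of each neighbouring coding stretch.
Pomt1-211: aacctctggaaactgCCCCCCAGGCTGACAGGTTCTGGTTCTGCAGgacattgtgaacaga
A further Pomt1 transcript, the partial coding Pomt1-202, reached 10.3% in replicate 1 of the kallisto-layout table and was at 0 in the other 3 values. The retained-intron transcript Pomt2-202 had 0 and 7.06% of Pomt2 TPM, and 5.88% and 22.6% in the kallisto-layout table, on 8.00 estimated counts at most. These minor shares rested on few reads and were not alike in the 2 tables.

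**Figure D2:**
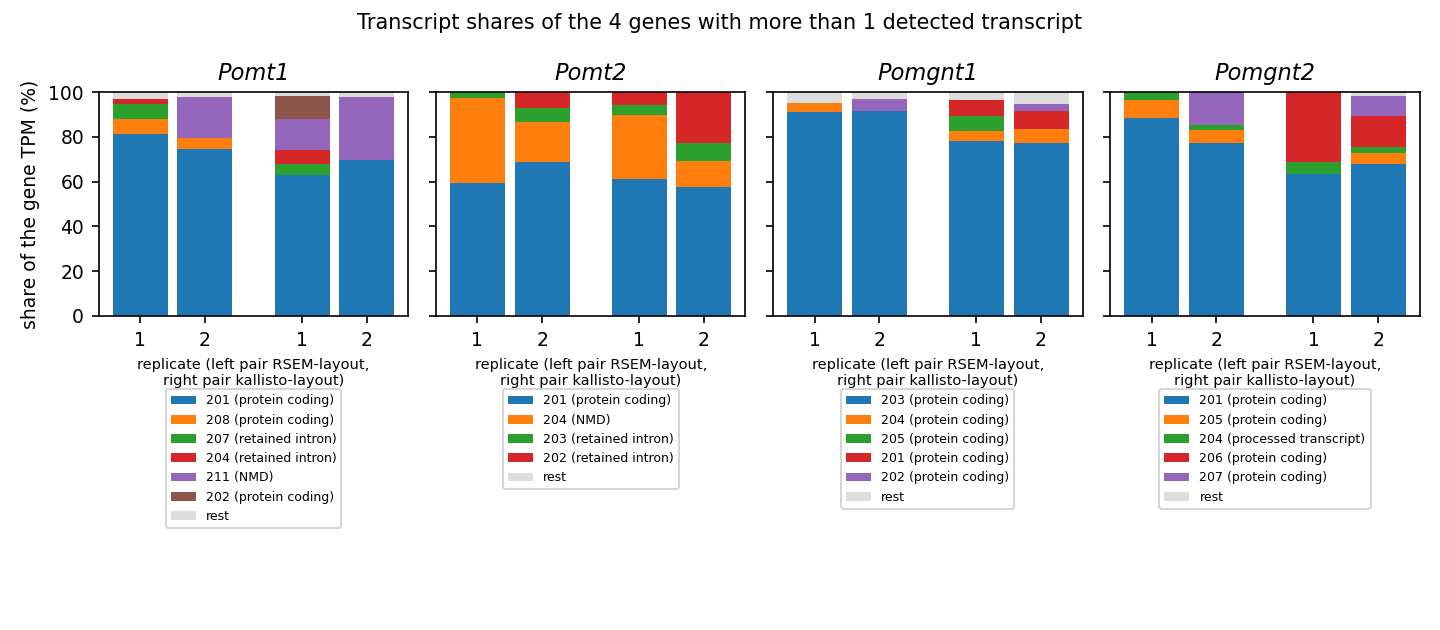
Share of gene TPM by annotated transcript for Pomt1, Pomt2, Pomgnt1 and Pomgnt2, as stacked bars from 0 to 100%, with replicates 1 and 2 of the RSEM-layout table on the left and of the kallisto-layout table on the right of each panel. The lowest segment is the main coding transcript, which holds 57.7% or more in every bar; NMD marks transcripts annotated for nonsense-mediated decay.

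Pomgnt1, whose protein adds N-acetylglucosamine to the mannose in the Golgi, was the most abundant of the 6. The gene (ENSMUSG00000028700.14) lies on chromosome 4 from 116123840 to 116159849, forward strand, mm10. Replicate 1 had 1465 expected counts and replicate 2 had 1458, which gave a log2 ratio of -0.04 (95% interval -0.15 to 0.06), the tightest interval of the 6. Pomgnt1 exceeded Pomgnt2, the other N-acetylglucosaminyltransferase, by 3.05-fold and 3.44-fold in TPM, and by 3.44-fold and 3.37-fold in the kallisto-layout table. The pair therefore differed by more than 3-fold in both libraries, in each of the 2 quantifications of the same reads.

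Most Pomgnt1 RNA was assigned to transcripts that begin at 1 of several annotated starts. Pomgnt1-203, with 22 exons and 660 codons, held 91.3% and 91.7% of gene TPM in the RSEM-layout table and 78.1% and 77.2% in the kallisto-layout table. Together with Pomgnt1-202, which starts 7 bases away, the start at chr4:116150518 had 20.7 and 20.2 TPM, and 16.4 and 16.1 TPM in the kallisto-layout table. A start 913 bases downstream, that of Pomgnt1-201 at chr4:116151431, had 0 TPM in both libraries of the RSEM-layout table and 1.45 and 1.62 TPM in the kallisto-layout table. The 3 long transcripts that start upstream, between 116137237 and 116137755, summed to 0.85 and 0.18 TPM, and to 2.38 and 1.42 TPM in the kallisto-layout table. The start at 116150518 led in both libraries in each of the 2 tables, and the minor starts depended on the table. The annotated coding sequence is the same length for transcripts 203, 204 and 205, whereas Pomgnt1-202 has 627 codons and Pomgnt1-201 has 638.

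RefSeq gives a promoter for both the leading start and that of Pomgnt1-201, and they are printed to set the 2 start regions beside the levels above. The windows and the capitals are as above, forward strand. The leading start is chr4:116150268-116150567 and the downstream start is chr4:116151181-116151480.
Pomgnt1 leading start: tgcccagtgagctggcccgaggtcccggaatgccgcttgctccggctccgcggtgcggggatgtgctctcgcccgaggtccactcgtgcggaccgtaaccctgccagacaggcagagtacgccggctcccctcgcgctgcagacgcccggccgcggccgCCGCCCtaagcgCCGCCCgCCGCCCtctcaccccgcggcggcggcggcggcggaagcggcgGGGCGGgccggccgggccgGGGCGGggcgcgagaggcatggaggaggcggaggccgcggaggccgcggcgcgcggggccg
Pomgnt1 downstream start: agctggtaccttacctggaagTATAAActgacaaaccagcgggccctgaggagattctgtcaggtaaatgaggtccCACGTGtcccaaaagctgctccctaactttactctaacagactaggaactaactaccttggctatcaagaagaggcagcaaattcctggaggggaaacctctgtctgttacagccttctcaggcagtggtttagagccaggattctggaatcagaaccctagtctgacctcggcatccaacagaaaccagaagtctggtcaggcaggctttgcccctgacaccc
The leading window had 5 GC boxes and none of the other 3 motifs, with 80.7% G and C and 51 CG dinucleotides, at least as many CG as in 99.4% of the 32851 promoters of this length. The downstream window had no GC box, 50.7% G and C and 3 CG dinucleotides, against medians over all promoters of 52.7% and 7. It held 1 E-box and 1 TATA box, a motif in 13.6% of all promoters. The Pomgnt1 gene also overlaps Lurap1 on the opposite strand over 18933 bases, and Lurap1 had 296 and 333 expected counts. The sources used here do not say whether counting used the strand. The deposited posterior SD of the gene count was 0 in both libraries for Pomgnt1 and for Lurap1. Whether any Lurap1 reads were counted to Pomgnt1 was not tested.

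Pomgnt2 and Pomk act on the chain that carries matriglycan. Pomgnt2 (ENSMUSG00000066235.7, chromosome 9 from 121981606 to 121997110, reverse strand) encodes the enzyme that starts this chain with N-acetylglucosamine in the endoplasmic reticulum. Pomk (ENSMUSG00000037251.5, chromosome 8 from 25980604 to 25994133, reverse strand) encodes the kinase that phosphorylates the mannose once the chain has been extended. Pomgnt2 exceeded Pomk by 2.68-fold and 2.27-fold in TPM, and by 2.17-fold and 2.22-fold in the kallisto-layout table. Pomgnt2 had 387 and 350 expected counts, with a log2 ratio of 0.09 (95% interval -0.12 to 0.31). Pomk had 248 and 255, with a log2 ratio of -0.09 (-0.35 to 0.17). Neither interval was to 1 side of equality.

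The log2 ratio of Pomgnt2 was larger in TPM than in counts, as was the median over all genes, and the transcripts assigned also changed. Its deposited TPM gave a log2 ratio of 0.28, while the median over all genes with that scale was 0.13, and its effective length was 2042 bases in replicate 1 and 2124 bases in replicate 2. Pomgnt2-201 held 88.3% and 77.4% of gene TPM. Pomgnt2-207 held 0 and 14.8%, the share in replicate 2 resting on 56.6 counts with a posterior SD of 41.5. The kallisto-layout table gave Pomgnt2-201 63.5% and 67.6%, Pomgnt2-207 0 and 9.24%, and Pomgnt2-206, which was at 0 in the RSEM-layout table, 31.3% and 13.8%. The shares of the 3 transcripts therefore differed between tables and libraries. All 3 have a coding sequence of 580 codons in 1 exon and differ in the exons before it, so the coding part does not separate them. Pomk has a single annotated transcript, Pomk-201, with 5 exons and 349 codons.

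B4gat1 (ENSMUSG00000047379.7, chromosome 19 from 5038826 to 5041131, forward strand) encodes the glucuronyltransferase that primes the polymer. It was the only enzyme with a counting interval to 1 side of equality between libraries, with expected counts of 379.8 in replicate 1 and 460.7 in replicate 2 and a log2 ratio of -0.33 (95% interval -0.53 to -0.13). Such intervals were wholly below equality in 12.4% of the 9741 genes averaging 100 counts or more, and on either side in 24.3%. A single gene of 6 is close to that background. In the kallisto-layout table the estimated counts were 403.6 and 432.1, a log2 ratio of -0.16. B4gat1 was thus lower in replicate 1 in both tables, by less in the second, for which no counting interval of B4gat1 alone was computed.

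The assignment of reads to B4gat1 was uncertain, and which genes shared its reads was not tested. B4gat1 was the only 1 of the 6 with a posterior SD above 0, at 14.8 and 17.2 counts, where 19.5% of genes averaging 100 counts or more had one in either library. AC124502.3, an annotated gene on the same strand that runs on past B4gat1, shares 2241 bases with it. AC124502.3 had 44.9 and 30.4 expected counts with posterior SDs of 21.8 and 26.1, but 63.4 and 141.9 estimated counts in the kallisto-layout table. The tables were furthest apart on AC124502.3 in replicate 2. The sum of both genes there was 491.1 expected counts in the gene table and 574.0 estimated counts in the kallisto-layout table. In replicate 1 the sum was 424.7 and 467.0. The other enzymes also had more counts in the kallisto-layout table in both libraries. In replicate 2, for instance, Pomk had 296.7 against 255 and Pomt2 239 against 192. Why the sums differed was not tested. For the sum, the log2 ratio was -0.26 (95% interval -0.45 to -0.07) in the gene table and -0.36 (-0.54 to -0.19) in the kallisto-layout table. All B4gat1 RNA was assigned to B4gat1-201, with 2 exons and 415 codons, and B4gat1-202 was at 0 in both tables.

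Between the libraries, none of the 6 enzymes was 1.5-fold apart, and 1.22% of the 9741 genes averaging 100 counts or more were, with 0.298% at 2-fold. The count of 0 enzymes was the same with DESeq2 size factors, library totals, spike-in totals, kallisto-layout counts and deposited TPM, where 4.01% of these genes were 1.5-fold apart. The median size of the log2 ratio was 0.09 among the 5738 genes in the count range of the enzymes, and the ratios of 5 of the 6, all but B4gat1, were no larger than 0.09 in size. Scaling moved all genes together, and the median log2 ratio over all genes was -0.09 with spike-in totals, 0.06 with library totals and 0.13 with deposited TPM. The median of the 6 was -0.13, 0.03 and 0.08 with those scalings, below that of all genes each time. No direction is given for them as a family.

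**Figure D3:**
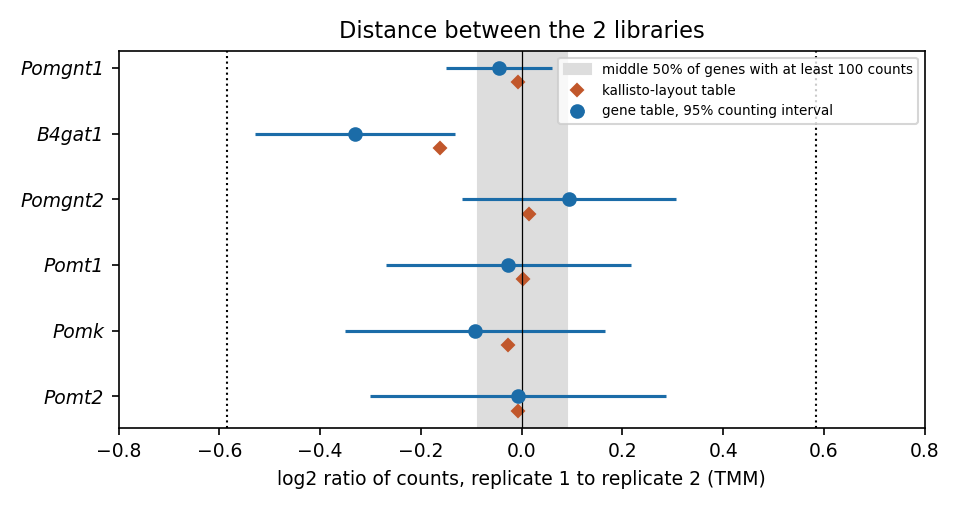
Log2 ratio of counts of replicate 1 to replicate 2 for the 6 genes, with TMM scaling. Circles and bars are the gene table with exact 95% counting intervals, diamonds the kallisto-layout table, the grey band the middle 50% of all genes averaging 100 counts or more, and dotted lines 1.5-fold; B4gat1, at -0.33, is the only circle with an interval clear of 0.

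Against their substrate, the enzymes were at low levels. The 6 enzymes summed to 46.8 and 44.6 TPM, while Dag1, which encodes dystroglycan, had 70.7 and 60.0 TPM, so the sum was 66.2% and 74.3% of Dag1. Single enzymes were further below it, and Dag1 exceeded Pomgnt1 by 3.13-fold and 2.87-fold, B4gat1 by 9.20-fold and 6.84-fold, and Pomgnt2 by 9.55-fold and 9.89-fold. Its excess over Pomt1 was 15.9-fold and 13.4-fold, over Pomk 25.6-fold and 22.5-fold, and over Pomt2 37.0-fold and 35.5-fold. The gaps between Dag1 and each single enzyme were far wider than the spread between the libraries.

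The 6 enzymes had a median of 5.93 and 5.28 TPM, and 3 other genes of the matriglycan route were set beside them. B3galnt2, which adds N-acetylgalactosamine after Pomgnt2, had 30.2 and 33.0 TPM, above all 6 enzymes in each library. Rxylt1, which adds xylose, had 20.9 and 23.2 TPM. Pomgnt1, at 22.6 and 20.9 TPM, was the only enzyme of the 6 in that range, and its library values overlapped those of Rxylt1. Large2 had 0.44 and 0.17 TPM, below all 6 enzymes. It rested on 6 and 3 counts. On TMM-scaled counts it was the only gene of the pathway lists past 1.5-fold between libraries, while in deposited TPM Gmppb (2.76 and 1.43 TPM) and Pmm2 (9.45 and 5.80 TPM) were also past it.

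The 8 genes that supply the mannose donor, dolichol phosphate mannose, had a median of 9.28 and 8.46 TPM and were all at 1 TPM or more. They ran from Gmppb (2.76 and 1.43 TPM), a subunit of the enzyme that makes GDP-mannose, to Dpm1, the catalytic subunit of dolichol phosphate mannose synthase, which had the highest mean (32.4 and 29.0 TPM). Mpi, at 32.5 and 26.6 TPM, was above it in replicate 1 alone. The 7 genes of dystroglycan and its membrane complex had a median of 39.6 and 35.0 TPM, and the lowest of them, Sspn at 20.3 and 18.2 TPM, was near Pomgnt1 and above the other 5 enzymes. The highest was Sgca, alpha-sarcoglycan, at 136.3 and 119.0 TPM. The 4 matrix ligands had a median of 13.8 and 12.1 TPM, from Agrn (agrin) at 2.64 and 2.04 TPM to Hspg2 (perlecan) at 23.1 and 19.9 TPM.

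Genes for O-mannose outside the matriglycan route were mostly low. Of the 5 O-mannosyltransferase genes that act on other proteins, such as cadherins and plexins, 3 reached 1 TPM in each library. Their median was 1.31 and 1.29 TPM, with Tmtc1 far above the others at 27.6 and 25.8 TPM and Tmtc2 lowest at 0.43 and 0.29 TPM. Pomt1 and Pomt2 thus stood below Tmtc1 and above Tmtc2. None of the 4 genes for other branches on O-mannose, known chiefly from brain, reached 1 TPM in both libraries. B3gat1 was the highest of them at 1.01 and 0.81 TPM, and B3gat2 had 0 counts in both libraries of the gene table and 0 and 4 estimated counts in the kallisto-layout table.

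**Figure D4:**
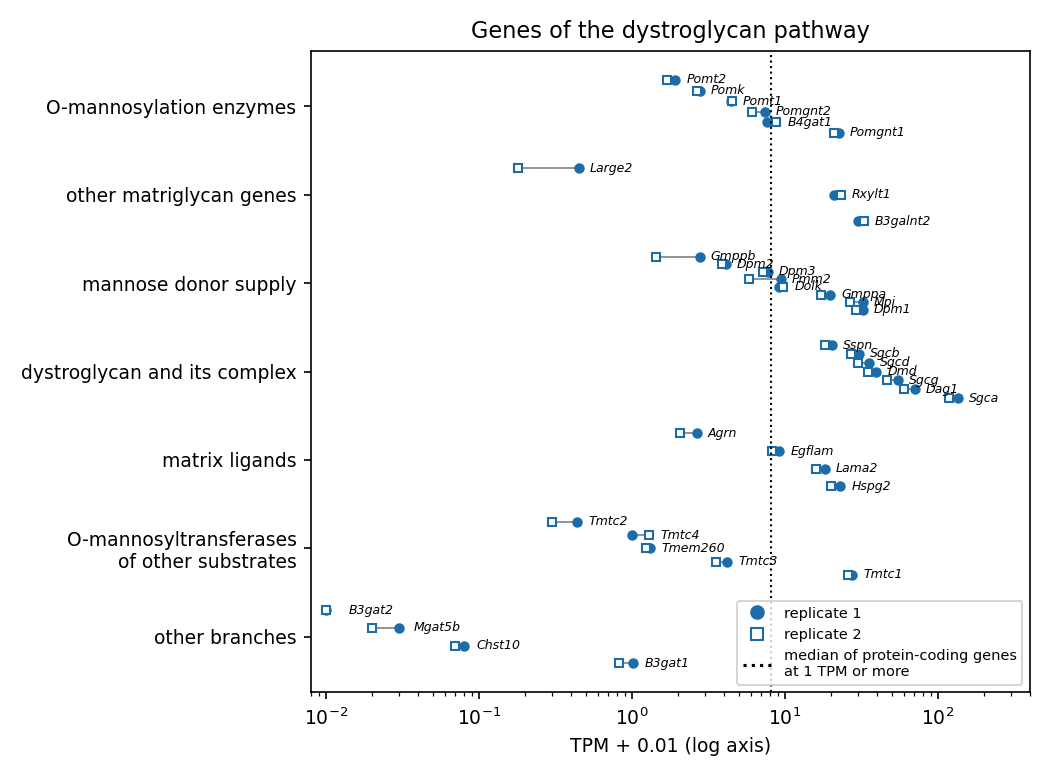
TPM plus 0.01 on a log axis for the 6 enzymes and 6 lists of related genes, with filled circles for replicate 1 and open squares for replicate 2 of the gene table. The dotted line is the mean of the library medians of protein-coding genes at 1 TPM or more, and the membrane complex lies to its right throughout, while 4 of the 6 enzymes lie to its left in both libraries.

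Besides Pomgnt1, described above with Lurap1, 3 more of the enzymes overlap an annotated gene on the opposite strand. Pomt2 overlaps Gstz1 on the opposite strand over 804 bases, and the Gstz1-201 transcript starts 184 bases downstream of the Pomt2-201 start. Gstz1 had 673 and 676 expected counts, more than 3 times those of Pomt2. Pomt1 overlaps Uck1 on the opposite strand by 4 bases, and Pomgnt2 overlaps the antisense gene Gm39463 by 993 bases. Gm39463 had 0 counts in both libraries. No annotated gene overlaps Pomk.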

How the data were processed

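Per the labels' protocols, total RNA was column-purified, 300 ng entered a directional library kit with ribosomal RNA reduction, and ERCC spike-in RNA was added. Per the file headers, the deposited gene and RSEM-layout transcript tables hold expected counts, a posterior SD of each count and TPM, on mm10 and GENCODE M21. The deposited kallisto-layout tables hold estimated counts and TPM per transcript, which were summed per gene. Aligner and program versions: not given in the sources used here. Symbols were mapped to gene identifiers through the transcript names. Totals were 35163970 and 35412240 expected counts, and 86 genes absent from the kallisto-layout table were taken as 0 there.

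Levels used the deposited TPM. Ratios of replicate 1 to replicate 2 were taken on rounded expected counts, scaled by TMM (edgeR 4.0.16, genes averaging 10 counts or more) with a prior of 0.5 counts. With 1 library a side there is no p-value. Ratio intervals are exact binomial and TPM intervals exact Poisson, both at 95%. Alternatives were DESeq2 1.42.0 size factors, library or spike-in totals, deposited TPM with a pseudocount of 0.1, the kallisto-layout table, other minimums, folds and priors, TPM rescaled over protein-coding genes and each library alone. On simulated libraries of 14361 genes, 25 of 47 genes changed by 1.5-fold, 47 of 47 changed by 2-fold and 1 of 9599 unchanged genes were counted at 1.5-fold. The simulated counts held counting error alone, so they do not measure the spread between real libraries, where 119 of 9741 genes were past 1.5-fold.

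The 6 genes, the lists and the tests were chosen with earlier results of these data known. Named are the 6 genes, the highest and lowest of each list, any past 1.5-fold, and transcripts with at least 10% of gene TPM in any library. Some genes of the lists are not reported here. Further pathway, transcript and neighbour genes were named after their values were seen. The software was matplotlib 3.10.9, scipy 1.17.1, pandas 2.3.3, numpy 2.4.6 and R 4.3.3.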

Additional observations from a re-analysis of the deposited data

How the results depend on the processing

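The order of the 6 enzymes and their sum relative to Dag1 kept their values within the replicate spread in the kallisto-layout table. Rescaling over protein-coding genes alone gave a median of the 6 of 12.5 TPM in place of 5.6 TPM, since all levels of a library grow by a common factor. The count of 119 of 9741 genes at least 1.5-fold apart (1.22%) became 391 (4.01%) with deposited TPM and 29 (0.298%) at 2-fold. Over the larger set of 14361 genes averaging 10 counts or more, it was 1289. The enzymes among them numbered 0 in each case. With each library alone, the median ranged from 5.28 to 5.93 TPM, the sum from 66.2% to 74.3% of Dag1, and all 6 kept their place in the order. Of 48 alternative log2 ratios of single enzymes, 47 moved by less than the counting interval and 1, Pomgnt1 with deposited TPM at 0.12, moved beyond it. Of 12 alternative levels over both libraries, 10 moved by more than 1 SD. Of 8 alternative shares of the main transcript in the 4 genes with several, 6 moved, and the share was 77.7% for Pomgnt1 and 65.6% for Pomgnt2 in the kallisto-layout table. Depth limits the minor transcripts of Pomt1, Pomt2 and Pomgnt2, which rest on fewer than 60 counts each in the RSEM-layout table. No paired analysis was possible because the series holds 1 group and no other group shares its replicate numbers.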
